A study of Homo sapiens with 24 samples.

Results

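The integrated stress response (ISR) was followed through 10 of its genes: the transcription factor ATF4 and 9 genes it is known to activate, ATF3, DDIT3, DDIT4, TRIB3, CHAC1, ASNS, SESN2, PSAT1 and PHGDH. Members were taken by gene name, and each name matched 1 of the 60658 genes counted. The series compared 4 ways of depleting the circular RNA ciRS-7 (also called CDR1as) in cells labelled SH-SY5Y, a neuroblastoma line. Each setup had a knockdown (KD) group and its own non-targeting control (NTC) group of 3 libraries, 24 libraries in all, harvested 48 h after transfection.

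In the agoshRNA setup, KD and NTC cells both received a plasmid for a short hairpin that Argonaute processes. In the gRNA and pre-gRNA setups both arms received a plasmid for CasRx, an RNA-guided RNA nuclease, fused to GFP, together with a second plasmid that expressed the guide as gRNA or as pre-gRNA. These plasmids went in with Lipofectamine 3000. The guide of the syn-gRNA setup was chemically synthesised, and how it and any CasRx reached the cells is not described in the labels. No untransfected group was among the samples, so a response to transfection itself could not be measured. The library columns carry the letters A, B and C, which nothing ties to the labels' replicate numbers, and each library is called by its setup, arm and column letter. The labels do not say whether the 3 libraries of a group came from separate cultures, so p-values measure the spread between these libraries, which may be technical.

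As background, the ISR is a switch in protein synthesis. Kinases that sense unfolded protein in the endoplasmic reticulum, amino acid shortage, haem shortage or double-stranded RNA phosphorylate the initiation factor eIF2, general translation falls, and the ATF4 message is translated more. Much of the control of ATF4 is therefore at translation, which RNA counts do not measure. ATF4 protein then activates genes for amino acid synthesis and uptake, further regulators, and genes that restrain growth or promote cell death. The members were read for the effect of KD within each setup and for differences between the setups within each arm.

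ATF4 binds with C/EBP partners at a composite element, searched here as TGATGNAA on both strands of RefSeq promoter windows of GRCh38.p14, each 300 bases long with 250 before the start and 50 after. The element stood in the windows of 3 of the 10 members, against 4.46% of 27305 genes. A gene can have several windows, and by window it stood in 3 of the members' 16, against 3.62% of 35116. ATF4 is known to act on such genes through elements of this kind. Binding was not measured, so whether ATF4 uses these matches was not tested. The 30 bases around each match are shown, with the match in capitals.

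ATF3: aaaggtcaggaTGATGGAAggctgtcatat
ASNS: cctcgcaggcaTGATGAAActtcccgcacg
CHAC1: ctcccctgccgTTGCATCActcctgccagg

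The ATF3 window is chr1:212565205-212565234 on the plus strand, and its match begins 191 bases before the start. The ASNS window is chr7:97872458-97872487 on the minus strand, and its match begins 68 bases before the start. The CHAC1 window is chr15:40953251-40953280 on the plus strand, with the element on the opposite strand and its match beginning 209 bases before the start. The other 7 members had no match to these letters in their windows.

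Total counts per library ran from 10994974 to 16233777, and mitochondrial genes took 3.36 to 5.13% of them. All 10 members passed the filter of at least 10 counts in at least 3 libraries in every comparison, and the fewest counts of any member in any library were 22, for CHAC1. The targeted RNA could not be checked: the gene CDR1-AS had 0 to 16 counts per library, with 0 to 15 in the KD groups and 2 to 16 in the NTC groups, and a circle has no poly(A) tail by which these libraries select RNA. Of 7 noradrenergic neuroblastoma markers, PHOX2A, STMN2 and ELAVL4 were at or near 0 (at most 5 counts in a library), and GATA2, TBX2, HAND1 and CHRNA3 were present at means of 13 to 35.7 CPM (counts scaled to a library total of 1000000). Of 5 markers of kidney lineage, HOXA9, HOXA10, HOXA11 and PAX2 were present at means of 10.97 to 98.2 CPM and PAX8 was near 0. The label of the cell line is therefore used here as a label only.

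Some members share bases with other annotated genes, and the libraries do not mark strand. DDIT4 (hg19 chr10:74033678-74035794, plus strand) overlaps RP11-442H21.2 on the opposite strand, which held counts equal to 73.4% of those of DDIT4 and followed it with r = 1.00 over 24 libraries. ASNS (hg19 chr7:97481430-97501854, minus strand) overlaps RP5-1090P18.1 on the same strand, with counts equal to 95.3% of its own and r = 1.00. DDIT3 (hg19 chr12:57910371-57915520, minus strand) overlaps MARS and MBD6 on the opposite strand and 2 genes on its own. MARS held 538% of the counts of DDIT3 at r = 0.22, and MBD6 79.0% at r = -0.37. On its own strand RP11-181L23.10 held 17.2% at r = 0.86, and MIR616 1.32% at r = 0.12. Reads on shared bases cannot be told apart, so the values of DDIT4 and ASNS are those of the locus. DDIT3 did not follow MARS or MBD6, and how far shared reads enter its values was not tested.

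Per kilobase of gene model, ATF4 was the most abundant member, with a mean of 424 CPM per kb over the 24 libraries. DDIT4 followed at 219 CPM per kb. PSAT1 (94.0), ATF3 (70.8), ASNS (59.1), PHGDH (56.0), SESN2 (37.3) and DDIT3 (30.1) lay between, and CHAC1 (7.21) and TRIB3 (6.28) were lowest on that scale. In CPM without the length, the lowest and highest libraries differed by a ratio of 1.70 for ATF4, between 865 and 1472 CPM. The ratio was between 2.65 and 6.82 for PHGDH, DDIT3, ATF3, SESN2, DDIT4, PSAT1, TRIB3 and ASNS. CHAC1, which degrades glutathione, was the most variable member, from 2.00 CPM in syn-gRNA KD C to 52.4 CPM in agoshRNA KD C, a ratio of 26.2. The libraries agoshRNA KD C and agoshRNA NTC C each held the highest value of the 24 for 4 members, and syn-gRNA KD C the lowest for 4.

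**Figure D1:**
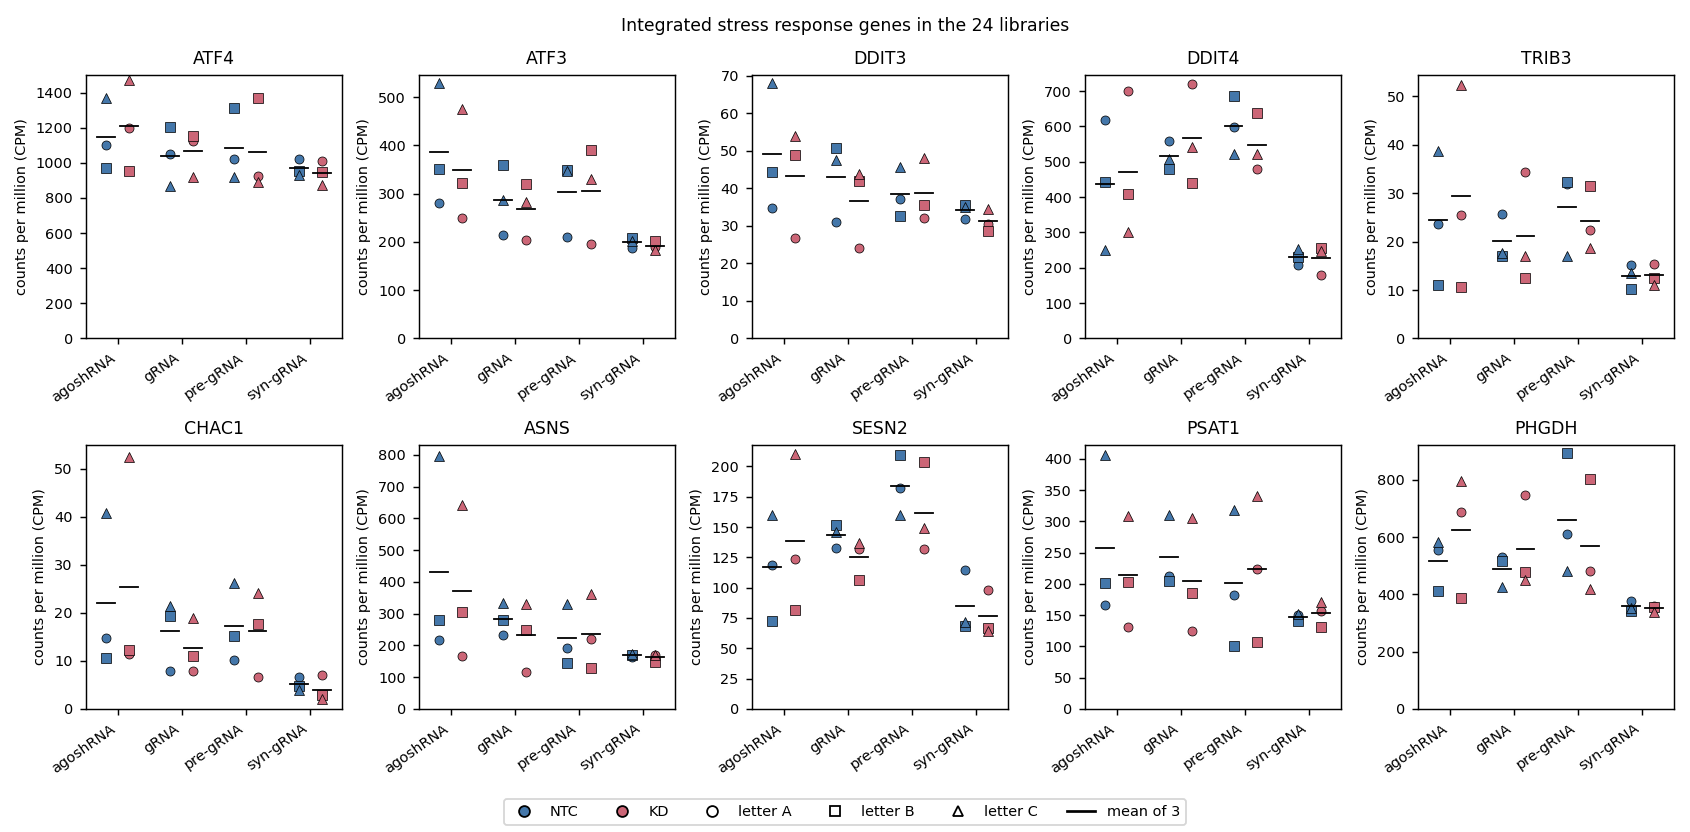
CPM (vertical axes, from 0) of each member in the 24 libraries, by setup, with NTC in blue, KD in red, a symbol for each letter and a bar at the mean of 3. In each setup the KD and NTC points overlap for every member, and the syn-gRNA points lie low and close together, as for DDIT4 at 181 to 255 CPM.

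The first question was whether depletion of ciRS-7 moved the ISR genes within a setup. None of the 10 members was called in any setup by the Wald test of DESeq2 at a Benjamini-Hochberg adjusted p under 0.05, and 0% of genes (0 of 17806 to 18717 tested per setup) were called. No member had an unadjusted p under 0.05, and edgeR called none either. With the column letter as a block no member was called, and PHGDH and SESN2 in pre-gRNA had an unadjusted p under 0.05. The KD estimates, standard errors and intervals below are without the block unless it is named, so they include the spread between letters. In no setup did all KD libraries lie above, or all below, the NTC libraries for any member.

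ATF4 itself had 1199, 951 and 1472 CPM in the agoshRNA KD libraries A, B and C, against 1100, 969 and 1369 in NTC. In gRNA it had 1124, 1155 and 917 CPM in KD against 1049, 1204 and 865 in NTC. In pre-gRNA it had 925, 1371 and 892 in KD against 1020, 1313 and 917 in NTC, and in syn-gRNA 1012, 946 and 872 against 1023, 956 and 933. KD and NTC libraries of the same letter stayed close while letters differed, most in pre-gRNA, where B was high in both arms. The fitted log2 difference of KD minus NTC for ATF4 was 0.11 ± 0.35 (SE) in agoshRNA, 0.14 ± 0.33 in gRNA, -0.06 ± 0.46 in pre-gRNA and -0.05 ± 0.12 in syn-gRNA. Without the letter block, the 95% interval in syn-gRNA, -0.28 to 0.19, was the narrowest for this gene. With the column letter as a block the differences were 0.10, 0.14, -0.07 and -0.05 in the same order. Their DESeq2 unadjusted p were 0.513, 0.434, 0.42 and 0.532.

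The 2 other transcription factors were ATF3, a stress-induced repressor, and DDIT3, which encodes the pro-apoptotic factor CHOP. ATF3 differed by -0.11 ± 0.48 in agoshRNA, -0.02 ± 0.37 in gRNA, -0.01 ± 0.49 in pre-gRNA and -0.07 ± 0.14 in syn-gRNA, on the log2 scale of KD minus NTC. In CPM, ATF3 was lower in KD in all 3 letters of agoshRNA and of gRNA. With DESeq2 size factors and the column letter as a block it was at -0.12 in agoshRNA and 0.01 in gRNA. DDIT3 lay between -0.17 ± 0.39 in gRNA and -0.02 ± 0.37 in pre-gRNA. The estimates of both genes were below 0 in all 4 setups and inside their standard errors, but the direction did not hold once the GC trend of each library was removed. ATF3 was then at 0.03 in agoshRNA and 0.10 in gRNA, and DDIT3 at 0.000303 in pre-gRNA.

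Among genes that restrain growth or survival, SESN2 encodes a leucine sensor that restrains mTORC1, DDIT4 encodes REDD1, another mTORC1 inhibitor, and TRIB3 a pseudokinase that feeds back on ATF4. SESN2 had 124, 81.2 and 210 CPM in agoshRNA KD A, B and C against 118, 72.3 and 160 in NTC, so KD was higher in each letter. In the other setups SESN2 was lower in KD in each letter, for example 132, 204 and 149 CPM in pre-gRNA KD against 182, 209 and 160 in NTC. The fitted differences were 0.29 ± 0.52 in agoshRNA, -0.10 ± 0.31 in gRNA, -0.21 ± 0.44 in pre-gRNA and -0.15 ± 0.19 in syn-gRNA. Tested directly, the KD effect on SESN2 in agoshRNA minus that in gRNA was 0.41 ± 0.53 (DESeq2 unadjusted p = 0.444), minus pre-gRNA 0.51 ± 0.53 (unadjusted p = 0.334) and minus syn-gRNA 0.44 ± 0.53 (unadjusted p = 0.409). With the column letter as a block these differences were 0.35 (DESeq2 unadjusted p = 0.0883), 0.48 (unadjusted p = 0.019) and 0.38 (unadjusted p = 0.0693). None was called in either fit, and the smallest adjusted p of the 3 with the block was 0.686. DDIT4 ranged from -0.17 ± 0.41 in pre-gRNA to 0.25 ± 0.34 in gRNA, and TRIB3 from -0.19 ± 0.49 in pre-gRNA to 0.32 ± 0.69 in agoshRNA.

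CHAC1 gave the estimate farthest from 0 of any member and setup, -0.37 ± 0.37 in syn-gRNA (unadjusted p = 0.311), where KD held 7.01, 2.999 and 2.00 CPM and NTC 6.64, 4.87 and 4.01. Its interval there, without the letter block, ran from -1.09 to 0.35. In agoshRNA the interval, also without the block, ran from -1.27 to 1.81, which spans a 2-fold difference in either direction. With the column letter as a block the differences were -0.50 in syn-gRNA (DESeq2 unadjusted p = 0.115) and 0.11 in agoshRNA (0.613). The agoshRNA letters A, B and C gave -0.35, 0.20 and 0.36. The genes of amino acid synthesis are ASNS, which makes asparagine, and PHGDH and PSAT1, successive enzymes of serine synthesis. ASNS ranged from -0.22 ± 0.42 in gRNA to 0.04 ± 0.46 in pre-gRNA. PHGDH was at 0.30 ± 0.40 in agoshRNA, 0.31 ± 0.37 in gRNA, -0.26 ± 0.52 in pre-gRNA and -0.03 ± 0.12 in syn-gRNA. PSAT1 was at -0.22 ± 0.57, -0.17 ± 0.40, 0.13 ± 0.51 and 0.04 ± 0.14 in the same order. In all 4 setups the estimates of PHGDH and PSAT1 had opposite signs, within their standard errors.

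Over the members, 6 of 10 estimates were above 0 in agoshRNA (median 0.11, all genes 0.06), 4 in gRNA (median -0.06, all genes 0.02), 2 in pre-gRNA (median -0.07, all genes 0.01) and 2 in syn-gRNA (median -0.06, all genes 0.00). In agoshRNA, gRNA and pre-gRNA these counts and medians depended on single libraries. Each of these fits left out 1 library, kept the other library of its letter and had no letter block. Differences between letters shared by both arms could thus enter the values, and no letter was left out in both arms together. In agoshRNA 2 members were above 0 without KD C (median -0.36), 4 without NTC B (-0.03), 9 without KD A (0.22) and 9 without NTC C (0.32). In gRNA 6 were above 0 without NTC B (0.07), and the median without NTC A was -0.20. In pre-gRNA 7 members were above 0 without NTC B (median 0.10), 6 without KD A (0.13), 5 without NTC C (-0.09) and 1 without NTC A (-0.22), and the median without KD B was -0.41. Letter by letter, KD was higher than NTC in all 3 letters for 1 member in agoshRNA (10.5% of all genes), 0 in gRNA (7.04%), 1 in pre-gRNA (19.5%) and 0 in syn-gRNA (12.9%). KD was lower in all 3 letters for 1 member in agoshRNA (11.3% of all genes), 5 in gRNA (15.8%), 2 in pre-gRNA (16.9%) and 3 in syn-gRNA (11.3%). The 5 in gRNA were ATF3, DDIT3, ASNS, SESN2 and PSAT1. These counts by letter are of CPM, without the size factors of DESeq2. In the authors' deposited table, the log2 fold changes of the members lay between -0.29 and 0.33 over the setups and every adjusted p was 1.

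**Figure D2:**
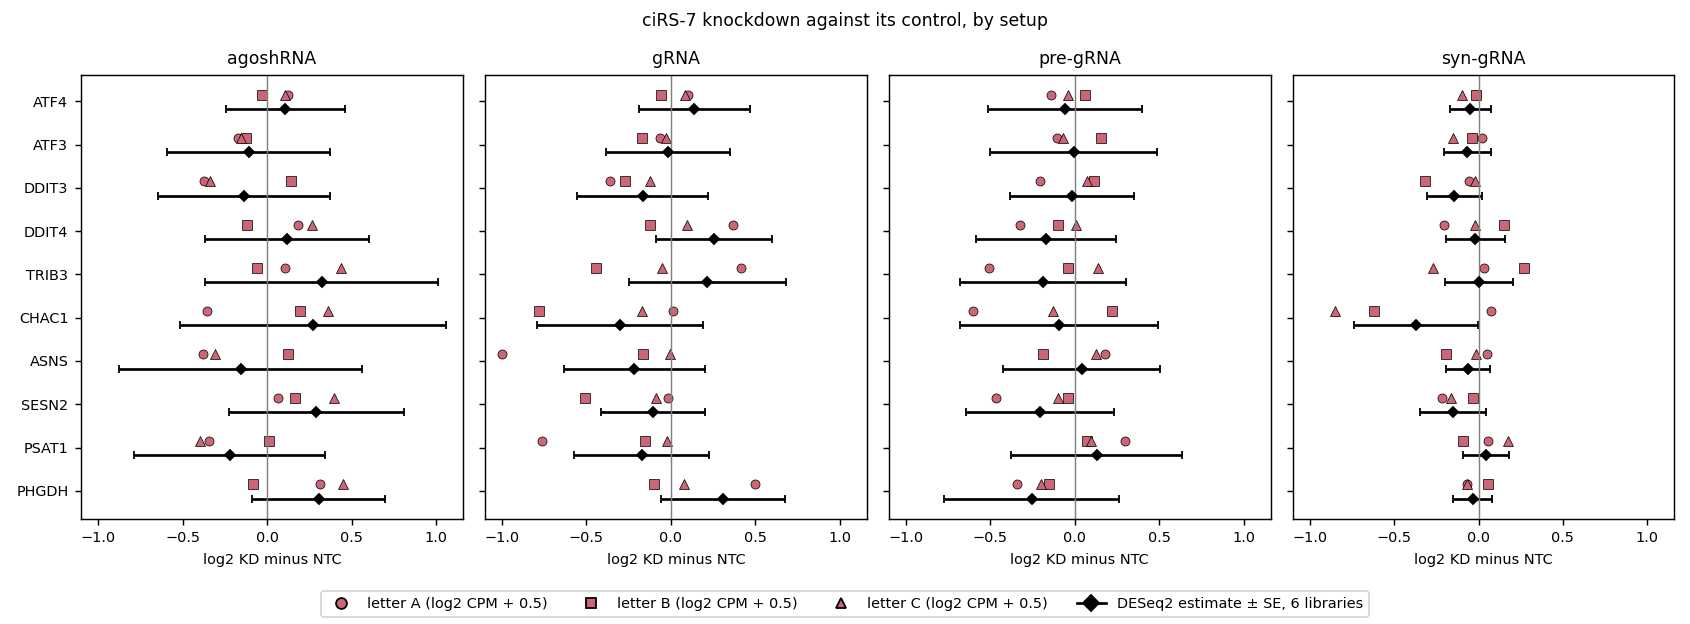
Log2 difference of KD minus NTC (horizontal axes) for each member and setup, with the 3 letters as red symbols (log2 of CPM + 0.5) and the DESeq2 estimate ± SE over 6 libraries as black diamonds. The estimates lie between -0.37 and 0.32, and the standard errors, from fits without the letter block, are shortest in syn-gRNA.

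The KD difference was set beside the base composition of the genes. Of the members, 6 have a GC content of 52.3 to 62.6% in their longest transcript (CHAC1, TRIB3, SESN2, DDIT4, ATF4 and PHGDH) and 4 one of 42.3 to 49.7% (DDIT3, ASNS, ATF3 and PSAT1), a division made after the values were seen. In agoshRNA all 6 GC-rich members were higher in KD (0.11 to 0.32) and all 4 GC-poor members lower (-0.22 to -0.11). In pre-gRNA all 6 GC-rich members were lower in KD (-0.26 to -0.06), while the 4 GC-poor members lay between -0.02 and 0.13. Over all genes averaging 50 counts or more, Spearman's rho of the log2 difference with GC content was 0.34 in agoshRNA, 0.55 in gRNA, -0.67 in pre-gRNA and -0.39 in syn-gRNA, a description across genes of the same 6 libraries. Over the 10 members rho was 0.79, 0.14, -0.72 and -0.28. With the GC trend of each library removed, the agoshRNA estimates lay between -0.08 and 0.26 and those of pre-gRNA between -0.19 and 0.06. PHGDH then had the highest value of the members in agoshRNA (0.26) and gRNA (0.22) and the lowest in pre-gRNA (-0.19). The part of base composition in the raw differences was not tested.

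**Figure D3:**
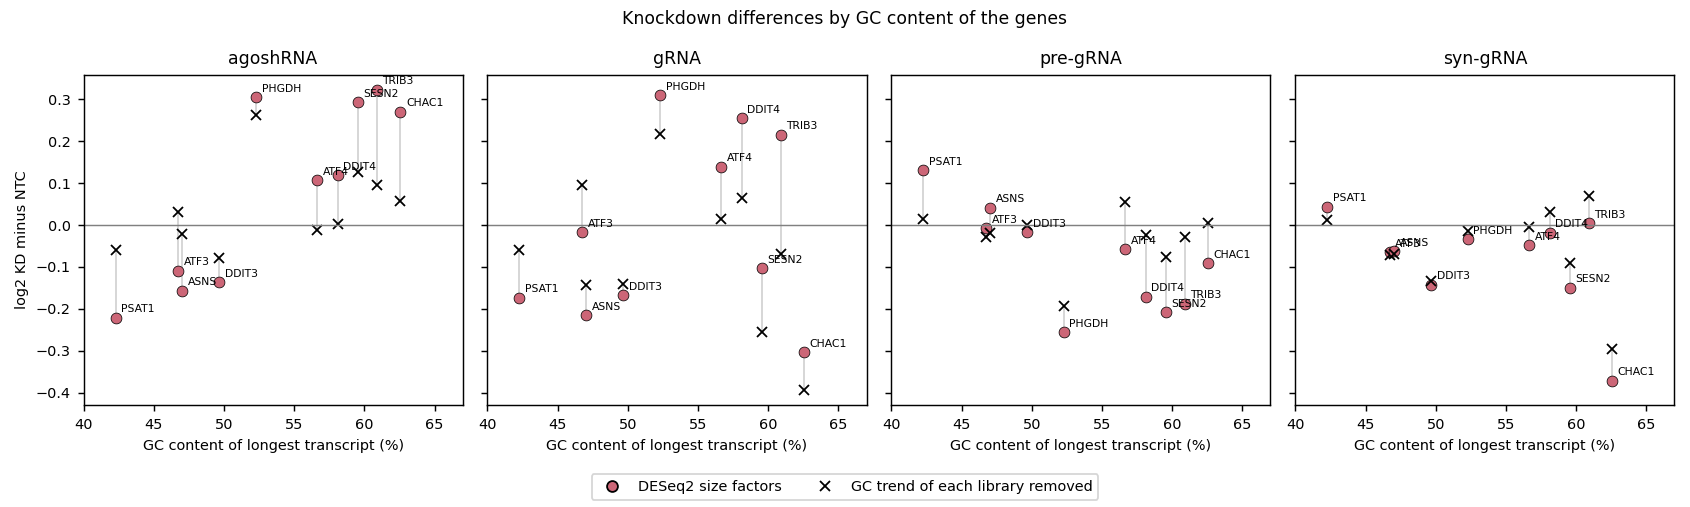
Log2 difference of KD minus NTC (vertical axis) against GC content of the longest transcript in percent (horizontal axes) for the 10 members in each setup, before (red circles) and after (crosses) removal of the GC trend of each library. In agoshRNA the raw values rise from the GC-poor members, at -0.22 to -0.11, to the GC-rich ones, at 0.11 to 0.32, and most crosses lie nearer to 0.

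Outside syn-gRNA, much of the spread in these genes lay between the letters of a setup and was shared by both arms. In agoshRNA, ASNS had 166, 306 and 643 CPM in KD A, B and C and 216, 281 and 797 CPM in NTC. CHAC1 had 11.4, 12.3 and 52.4 CPM in KD and 14.7, 10.7 and 40.7 in NTC, and TRIB3 25.6, 10.6 and 52.4 in KD and 23.7, 11.05 and 38.6 in NTC. The C libraries were thus the highest in both arms for these 3 genes, as they were for ATF4, ATF3, DDIT3, SESN2, PSAT1 and PHGDH. DDIT4 went the other way, with 701, 409 and 302 CPM in KD and 617, 444 and 252 in NTC, so that its C libraries were the lowest.

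In pre-gRNA the letters separated the 2 enzymes of serine synthesis. PSAT1 had 224, 107 and 340 CPM in KD A, B and C and 183, 101 and 318 in NTC, lowest in B. PHGDH had 481, 803 and 419 CPM in KD and 610, 894 and 480 in NTC, highest in B. A likelihood-ratio test of the letter within a setup, added after the data had been seen, called all 10 members in agoshRNA and in pre-gRNA, where 62.7% and 67.5% of all genes were called. It called 6 members in gRNA (ASNS, ATF3, CHAC1, DDIT3, PSAT1 and TRIB3; 41.4% of all genes) and 2 in syn-gRNA (DDIT4 and SESN2; 9.86% of all genes), at a DESeq2 adjusted p under 0.05. The members' counts are thus to be read against a background in which a large share of genes differed by letter. In syn-gRNA the letters lay close for most members, for example 149 to 172 CPM for ASNS and 337 to 377 CPM for PHGDH over its 6 libraries.

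The second question was whether the setups differed in the ISR genes within an arm. In both arms syn-gRNA had the lowest mean CPM of the 4 setups for all 10 members. In NTC cells the fitted values of agoshRNA and pre-gRNA were above those of syn-gRNA for 10 of 10 members and those of gRNA for 9 of 10, and in KD cells all 3 setups were above for 10 of 10. Between 49.4% and 53.8% of all genes were higher than in syn-gRNA in these 6 comparisons. The members' medians in NTC were 0.85 (agoshRNA), 0.53 (gRNA) and 0.77 (pre-gRNA) on the log2 scale, against -0.01, 0.02 and 0.04 for all genes. In KD they were 0.90, 0.54 and 0.67, against 0.02, 0.04 and 0.06. Over genes averaging 50 counts or more, Spearman's rho of these differences with GC content was 0.32, 0.26 and 0.60 in NTC. In KD rho was 0.51, 0.56 and 0.53. Over the 10 members rho was 0.04, 0.41 and 0.68 in NTC and 0.42, 0.71 and 0.66 in KD. The part of base composition in these differences was not tested. Setups differ in plasmids, guide, delivery and possibly day, and these cannot be told apart. The 3 comparisons of an arm share the syn-gRNA libraries.

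Single calls were few. By DESeq2 with all 24 libraries, CHAC1 was called in agoshRNA against syn-gRNA in KD, and DDIT4 in gRNA and pre-gRNA against syn-gRNA in KD and in pre-gRNA in NTC. That was 1 of 10 members in each of these 4 comparisons, where 1.42, 0.441, 0.644 and 1.17% of all genes were called higher than in syn-gRNA. No member was called in agoshRNA or gRNA against syn-gRNA in NTC, where 0.813% and 0.471% of genes were called higher, although 4 and 2 members had an unadjusted p under 0.05. In either direction 3.14, 1.58 and 2.52% of genes were called against syn-gRNA in KD and 1.84, 1.32 and 3.25% in NTC, for agoshRNA, gRNA and pre-gRNA. edgeR called no member in any of the 6 comparisons.

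DDIT4 was called in 3 of the 6 comparisons with syn-gRNA. It had 208, 230 and 252 CPM in syn-gRNA NTC A, B and C and 181, 255 and 249 CPM in syn-gRNA KD. In gRNA it had 558, 480 and 508 CPM in NTC and 720, 440 and 543 in KD, and in pre-gRNA 600, 686 and 521 in NTC and 479, 639 and 523 in KD. Every library of gRNA and pre-gRNA was above every syn-gRNA library, in both arms. The agoshRNA values ran from 252 to 617 CPM in NTC, where they overlapped syn-gRNA, and from 302 to 701 in KD, where they did not. The log2 difference from syn-gRNA was 1.28 ± 0.34 for gRNA in KD (DESeq2 adjusted p = 0.0172), 1.23 ± 0.34 for pre-gRNA in KD (0.018) and 1.39 ± 0.34 for pre-gRNA in NTC (0.00459), and 1.02 ± 0.34 for gRNA in NTC (0.0998). edgeR gave adjusted p of 0.0944, 0.078 and 0.0502 for the 3 called differences. The call for gRNA in KD was lost without gRNA KD A or C or any 1 of the syn-gRNA KD libraries, with differences of 0.99 to 1.38. That for pre-gRNA in KD was lost without pre-gRNA KD B (0.94) or any 1 syn-gRNA KD library, and that for pre-gRNA in NTC without pre-gRNA NTC B (1.11). With the GC trend removed the 3 differences were 0.93, 0.90 and 0.95 and were still called.

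CHAC1 showed the largest differences in size. In syn-gRNA it had 6.64, 4.87 and 4.01 CPM in NTC and 7.01, 2.999 and 2.00 in KD, and every agoshRNA library (10.7 to 52.4 CPM) lay above these. In agoshRNA KD against syn-gRNA KD its log2 difference was 2.74 ± 0.66 (DESeq2 adjusted p = 0.00445, edgeR 0.0651). Without agoshRNA KD C, which held 52.4 CPM, the difference was 1.54 (adjusted p = 0.287), and the call was also lost without syn-gRNA KD B (2.58) or C (2.42). In the other 5 comparisons with syn-gRNA the difference of CHAC1 was between 1.53 and 2.09, with adjusted p of 0.0622 to 0.292. When only the 6 libraries of a comparison were fitted, CHAC1 was called in all 6.

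Of the other 8 members none was called against syn-gRNA. SESN2 was 1.14 ± 0.38 higher in pre-gRNA NTC (adjusted p = 0.0646) and 1.06 ± 0.38 in pre-gRNA KD (0.108), with 182, 209 and 160 CPM in pre-gRNA NTC A, B and C against 114, 68.0 and 72.1 in syn-gRNA NTC. ASNS was 1.36 ± 0.51 higher in agoshRNA NTC (adjusted p = 0.155) and 1.26 ± 0.51 in agoshRNA KD (0.164), with the C libraries at 797 and 643 CPM. TRIB3 lay between 0.49 ± 0.53 and 1.22 ± 0.53, ATF3 between 0.40 ± 0.39 and 0.96 ± 0.39, PHGDH between 0.31 ± 0.38 and 0.92 ± 0.38, PSAT1 between 0.34 ± 0.44 and 0.81 ± 0.44, and DDIT3 between 0.14 ± 0.34 and 0.53 ± 0.34. PSAT1 was called in agoshRNA once the GC trend was removed, at 0.94 in KD (adjusted p = 0.0234) and 1.00 in NTC (0.0153), and SESN2 in pre-gRNA NTC when only the 6 libraries of the comparison were fitted (1.14, 0.0181). ATF4 was nearest to syn-gRNA, from -0.04 ± 0.31 in gRNA NTC to 0.38 ± 0.31 in agoshRNA KD, and its values turned to -0.16, -0.21 and -0.27 in gRNA KD, pre-gRNA KD and pre-gRNA NTC once the GC trend was removed.

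Counted by libraries, every NTC library lay above every syn-gRNA NTC library for 5 members in agoshRNA (7.8% of all genes), 8 in gRNA (21.3%) and 6 in pre-gRNA (17.3%). In KD this held for 4 members in agoshRNA (6.27% of all genes), 5 in gRNA (16.3%) and 4 in pre-gRNA (16.3%). No member lay below. PHGDH was above syn-gRNA without overlap in all 6 comparisons. ATF3, CHAC1 and DDIT4 were in 5 of the 6, and ATF4 and DDIT3 in none. The count of members above syn-gRNA stayed at 9 or 10 when any 1 library was left out. The median moved most without the agoshRNA C libraries, to 0.37 in NTC and 0.47 in KD. With the GC trend removed 8 to 10 members were above, with medians of 0.39 to 0.77.

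**Figure D4:**
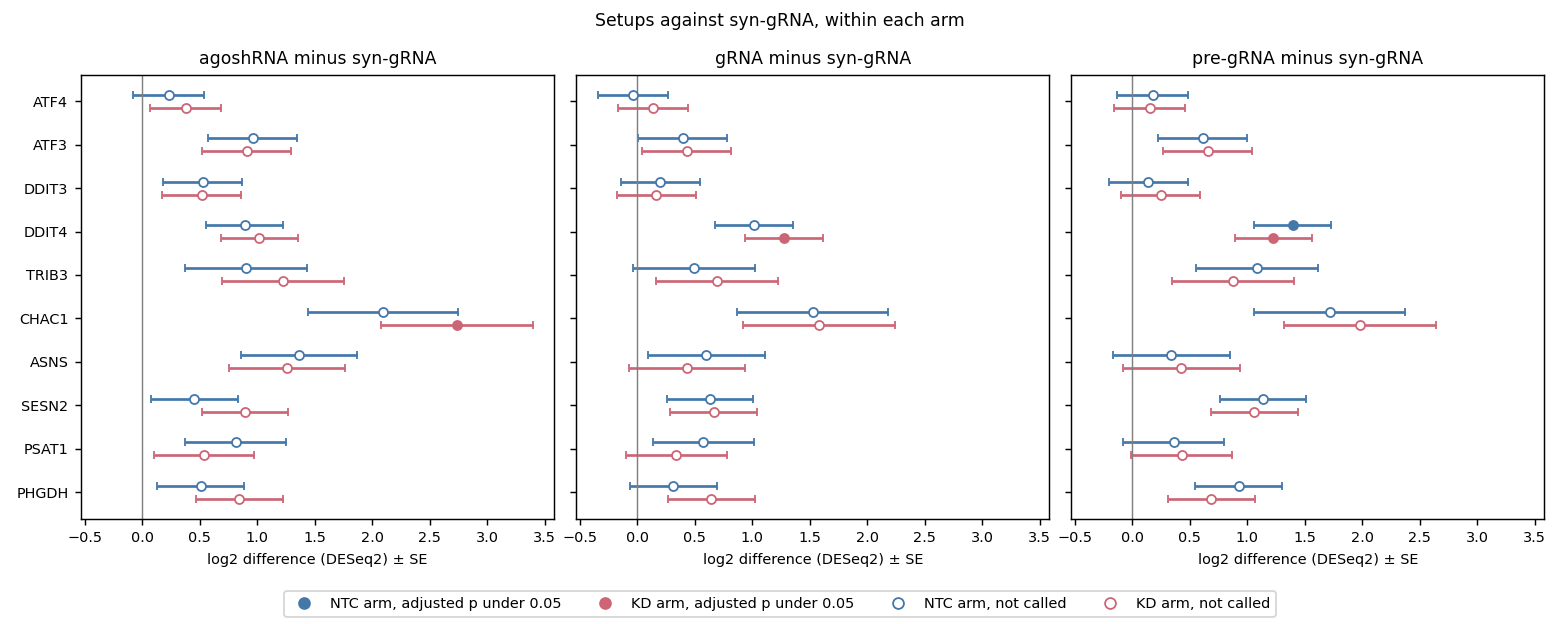
Log2 difference (DESeq2, ± SE) of agoshRNA, gRNA and pre-gRNA from syn-gRNA for each member in NTC (blue) and KD (red), with filled symbols where the adjusted p was under 0.05. All values but that of ATF4 in gRNA NTC (-0.04) lie above 0, and the 4 filled points are CHAC1 at 2.74 and DDIT4 at 1.28, 1.23 and 1.39.

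Among agoshRNA, gRNA and pre-gRNA no member was called by DESeq2 in either arm. Of all genes, 0.0446% were called in agoshRNA against gRNA and 0.0446% against pre-gRNA in KD, 0.0496% and 0.0347% in NTC, and 0% between gRNA and pre-gRNA. ASNS in agoshRNA against pre-gRNA in NTC (1.02 ± 0.51) was the single member value with an unadjusted p under 0.05 (0.0435), and edgeR called no member. The medians of agoshRNA minus gRNA were 0.30 in NTC and 0.30 in KD, and those of agoshRNA minus pre-gRNA 0.20 and 0.24. They passed below 0 in each case on leaving out 1 library, with the lowest at -0.18. SESN2 and DDIT4 were the members with the lowest values in agoshRNA against pre-gRNA, at -0.68 ± 0.38 and -0.50 ± 0.34 in NTC. For the difference of the KD effect between setups DESeq2 called 0 of 10 members and 0% of genes in each pair, and edgeR called no member (smallest DESeq2 unadjusted p = 0.283). With the column letter as a block none was called, and the smallest unadjusted p = 0.0153 was that of PHGDH in agoshRNA minus pre-gRNA (0.53).

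Genes upstream of ATF4 and its wider programme were read from lists. Of 12 genes for the eIF2 kinases, eIF2 and its exchange factor and phosphatase, none was called in any comparison of setups or of KD with NTC, and their medians against syn-gRNA lay between -0.07 and 0.05. Of 13 further regulators and targets, 1 or 2 were called higher than in syn-gRNA in each of the 6 comparisons and none lower, with medians of 0.30 to 0.71. Of all genes, 0.441 to 1.42% were called higher in these comparisons, with medians of -0.01 to 0.06. STC2, a secreted glycoprotein made under endoplasmic reticulum stress, was called in all 6, at 0.85 ± 0.18 to 1.20 ± 0.18 (smallest DESeq2 adjusted p = 3.22e-07). It had 67.8 to 82.7 CPM in the syn-gRNA libraries and 113 to 193 CPM in the other 18. JDP2, a repressor of the AP-1 family, was called in agoshRNA KD (1.55 ± 0.49, adjusted p = 0.0472), and TNFRSF10B, which encodes the death receptor DR5, in agoshRNA NTC (0.70 ± 0.19, 0.0237).

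The 8 amino acid transporters had medians of 0.69 to 1.09 against syn-gRNA, and SLC7A1, the cationic amino acid transporter, was called in all 6 comparisons at 1.34 ± 0.30 to 1.57 ± 0.30. It had 49.8 to 71.5 CPM in syn-gRNA and 107 to 271 CPM in the other setups, with no overlap. In pre-gRNA NTC the neutral amino acid carriers SLC1A4 (1.09 ± 0.32, adjusted p = 0.0261), SLC1A5 (1.10 ± 0.33, 0.0331) and SLC7A5 (1.34 ± 0.40, 0.0361) were called as well. Of all genes, 1.17% were called higher in that comparison. SLC7A5 falls outside the rule of 3 named genes per list and was added after its value was seen. Of 9 genes of serine, glycine and proline synthesis besides PHGDH and PSAT1, 8 or 9 had values above 0 and 1 was called, PSPH, the last enzyme of serine synthesis, in pre-gRNA NTC (1.03 ± 0.32, 0.0479). Of all genes, 49.4 to 53.8% had values above 0 in the 6 comparisons. Of 12 aminoacyl-tRNA synthetases 1 was called, AARS in agoshRNA KD (1.68 ± 0.43, 0.00951), where 1.42% of all genes were called higher. KD against NTC called 0 genes of any of these lists in any setup. edgeR made 7 of the 19 calls above: SLC7A1 in both arms of agoshRNA and pre-gRNA, and STC2 in agoshRNA KD and in both arms of pre-gRNA. When DESeq2 fitted only the 6 libraries of a comparison, STC2 was not called in agoshRNA KD (adjusted p = 0.117) or gRNA KD (0.0612). JDP2 (0.237), TNFRSF10B (0.207) and AARS (0.08855) were not called in that setting either, and the other calls were kept.

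Heat shock genes, which respond to unfolded protein in the cytosol through another factor, did not follow the members' order in gRNA and pre-gRNA. Of 6 such genes, 5 were above syn-gRNA in agoshRNA in each arm, with medians of 1.798 in KD and 1.685 in NTC. In gRNA 2 were above in KD and 0 in NTC, and in pre-gRNA 2 in each arm, with medians of -0.77 to -0.63. HSPA6, an inducible HSP70, had 33.0 to 41.6 CPM in the 6 agoshRNA libraries, 1.36 to 10.3 in syn-gRNA and at most 0.823 in gRNA and pre-gRNA. DNAJB1, its co-chaperone, had 343 to 658 CPM in agoshRNA and 52.7 to 159 in the other setups. HSPA8, the constitutive HSC70, was lower than in syn-gRNA in gRNA KD (-1.16 ± 0.33, adjusted p = 0.0323) and in both arms of pre-gRNA (-1.22 ± 0.33 in KD and -1.26 ± 0.33 in NTC). Of all 20172 genes, 229, 378 and 420 were called lower by DESeq2 in these comparisons, in the same order. By edgeR the adjusted p of these HSPA8 differences were 0.112, 0.0696 and 0.0568, and none was called. Of the 4 noradrenergic and 4 kidney-lineage markers that passed the filter, 0 were called in any comparison of setups, and against syn-gRNA their medians lay between -0.31 and 0.23. All 4 kidney-lineage markers had values below 0 in agoshRNA against gRNA, with medians of -0.40 in KD and -0.32 in NTC, and against pre-gRNA in KD (-0.45). Their part in the members' values was not tested.

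Across the 24 libraries, which share letters and setups, the log2 CPM of the members correlated with a median r of 0.51 over 45 pairs, and 39 pairs were above 0. These values were not set beside those of other pairs of genes. ASNS went with PSAT1 (r = 0.91), DDIT3 (0.89) and CHAC1 (0.73), and ATF3 with CHAC1 (0.87). PHGDH went with TRIB3 (0.88), SESN2 (0.80) and ATF4 (0.80). It was low, at 0.02 for ASNS with PHGDH and -0.15 for PSAT1 with PHGDH. DDIT4 correlated with no member above 0.65, which it reached with PHGDH.

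Among the 13835 genes averaging 50 counts or more, the single gene most like each member in log2 CPM over the 24 libraries was named, leaving out the other members. For TRIB3 this was GPT2 (r = 0.96), for PSAT1 CTH (0.97), for PHGDH NANS (0.98) and for ATF4 RPN1 (0.96). For ASNS and DDIT3 it was RP5-1090P18.1 (1.00 and 0.88) and for DDIT4 RP11-442H21.2 (1.00), which overlap ASNS and DDIT4. For SESN2 it was RP4-536B24.2 (0.92), for CHAC1 RP1-153G14.4 (0.89) and for ATF3 RP4-665J23.1 (0.83). Counting members too, CHAC1 was the gene most like ATF3 and ASNS the gene most like DDIT3 among all 13835. The nearest member ranked 2 for ASNS, 3 for CHAC1, 4 for PSAT1, 66 for SESN2, 126 for TRIB3 and 308 for ATF4. For DDIT4 and PHGDH the nearest member ranked 2245 and 520.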

How the data were processed

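Poly(A)-selected, non-stranded, paired-end libraries of 100 nt reads were sequenced from 24 samples, per the labels' protocols. The submitters' processing notes name Trim Galore, STAR 2.7.3a, featureCounts, DESeq2 and hg19, and the annotation and counting settings are not given in the sources used here. The authors deposited raw counts per gene in 4 tables, whose counts for the 24 libraries were identical. These tables also hold the authors' deposited log2 fold changes and p-values, used here where named, and 24 columns of normalized counts per table that were not used. 

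KD was compared with NTC on the 6 libraries of a setup, and setups within an arm in 1 model of all 24, by DESeq2 1.42.0 (R 4.3.3, Wald test) with Benjamini-Hochberg adjustment over all genes tested, called under 0.05. Genes needed at least 10 counts in at least 3 libraries. The alternatives were edgeR 4.0.16 (quasi-likelihood, TMM), TMM factors, no filter, a mean of at least 50 counts, a per-library GC trend removed (GC content known for 93.2% of genes, from GENCODE transcripts), the column letter as a block, other sets of libraries, and leaving out each library. Figures used matplotlib 3.10.9. Scripts were tested on simulated data.

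KD and NTC libraries of 1 letter deviated together from their group means (r = 0.36 to 0.97 over 12 pairs and 13835 genes), so letters were taken to pair libraries. The members and gene lists were chosen with earlier results of these data known. Named genes were all 10 members, up to 3 genes called per further list with the smallest adjusted p, and the gene most like each member. The test of the letter was added after the data had been seen.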

Additional observations from a re-analysis of the deposited data

How the results depend on the processing

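With 3 libraries per group and no letter block, small log2 differences of KD could not be resolved. A difference as large as its standard error was not: CHAC1 in syn-gRNA, at -0.37 ± 0.37, had a DESeq2 unadjusted p of 0.311. The standard errors given are those without the letter block. Their medians over all genes were 0.533, 0.433, 0.495 and 0.205 in agoshRNA, gRNA, pre-gRNA and syn-gRNA. With the block these medians were 0.231, 0.239, 0.172 and 0.178. No member was called for KD or for a difference of the KD effect under any alternative run. With the column letter as a replicate block 0 members were called in any setup, at unadjusted p of 0.00405 for PHGDH and 0.0352 for SESN2 in pre-gRNA (smallest adjusted p 0.831), and 1 gene of all was called in syn-gRNA against 0 without the block. Against syn-gRNA, edgeR called 0 members in all 3 KD comparisons and in pre-gRNA NTC, where DESeq2 called 1 each. Removing the GC trend gave 2 in agoshRNA KD, 1 in agoshRNA NTC and 1 in gRNA NTC. Fitting only the 6 libraries compared gave 2 in gRNA KD, 2 in pre-gRNA KD, 1 in agoshRNA NTC, 2 in gRNA NTC and 3 in pre-gRNA NTC. Leaving out each library gave 0 to 4 in agoshRNA KD, 0 to 1 in gRNA KD, in pre-gRNA KD and in agoshRNA NTC, and 0 to 2 in pre-gRNA NTC. 

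Every member was followed for KD against NTC and for each setup against syn-gRNA. Removing the GC trend turned the sign of the KD difference of ATF3 (0.031) and ATF4 (-0.011) in agoshRNA, of ATF3 (0.095) and TRIB3 (-0.070) in gRNA, of ASNS (-0.019), ATF4 (0.056), CHAC1 (0.0052) and DDIT3 (0.000303) in pre-gRNA and of DDIT4 (0.030) in syn-gRNA. Against syn-gRNA it turned ATF4 in gRNA KD (-0.16), pre-gRNA KD (-0.21) and pre-gRNA NTC (-0.27), and DDIT3 in pre-gRNA NTC (-0.026). Of differences near 0, ATF3 turned in gRNA under the replicate block (0.012) and in pre-gRNA with TMM factors (0.0015), edgeR (0.0015) and a mean of at least 50 counts (0.0038), and TRIB3 in syn-gRNA with no filter (-0.0019).

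For KD differences, each fit without 1 library kept the other library of its letter and had no letter block. Differences between letters could thus enter these fits. Leaving out 1 library turned the sign of the KD difference of 9 members in agoshRNA, 7 in gRNA, 10 in pre-gRNA and 5 in syn-gRNA, each given as lowest to highest. In agoshRNA it ran from -0.81 to 0.61 for ASNS, -0.41 to 0.16 for ATF3, -0.079 to 0.25 for ATF4, -0.85 to 1.07 for CHAC1, -0.37 to 0.17 for DDIT3, -0.17 to 0.36 for DDIT4, -0.58 to 0.25 for PSAT1, -0.17 to 0.59 for SESN2 and -0.44 to 0.83 for TRIB3. In gRNA it ran from -0.52 to 0.084 for ASNS, -0.22 to 0.22 for ATF3, -0.38 to 0.032 for DDIT3, -0.011 to 0.41 for DDIT4, -0.016 to 0.47 for PHGDH, -0.53 to 0.055 for PSAT1 and -0.39 to 0.49 for TRIB3. In pre-gRNA it ran from -0.38 to 0.38 for ASNS, -0.37 to 0.29 for ATF3, -0.44 to 0.30 for ATF4, -0.41 to 0.32 for CHAC1, -0.16 to 0.16 for DDIT3, -0.44 to 0.12 for DDIT4, -0.76 to 0.24 for PHGDH, -0.30 to 0.59 for PSAT1, -0.56 to 0.079 for SESN2 and -0.58 to 0.15 for TRIB3. In syn-gRNA it ran from -0.076 to 0.0076 for ATF4, -0.13 to 0.15 for DDIT4, -0.044 to 0.12 for PSAT1, -0.34 to 0.066 for SESN2 and -0.11 to 0.11 for TRIB3. The KD effect on SESN2 in agoshRNA ran from -0.11 to 0.74 minus gRNA, -0.0074 to 0.89 minus pre-gRNA and -0.080 to 0.77 minus syn-gRNA. Against syn-gRNA signs turned for ATF4 in pre-gRNA KD (-0.24 to 0.32), gRNA NTC (-0.20 to 0.088) and pre-gRNA NTC (-0.17 to 0.35) and for PSAT1 in pre-gRNA NTC (-0.066 to 0.60).

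All genes called against syn-gRNA numbered 634, 318 and 508 in KD and 371, 266 and 656 in NTC (agoshRNA, gRNA, pre-gRNA). By edgeR they were 192, 38 and 183, and 16, 0 and 149. With the GC trend removed they were 1632, 995 and 1525, and 1443, 1196 and 1736. With the 6 libraries alone they were 235, 442 and 723, and 362, 1018 and 1319. Among genes averaging 50 counts or more they were 357, 191 and 266, and 238, 153 and 383. The cause of these changes was not tested.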
